A study of Mus musculus with 4 samples.

Results

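The circadian clock genes and the PAR bZIP transcription factors of mouse liver are described here through 10 genes, Arntl, Per1, Per2, Per3, Cry1, Ciart, Nr1d2, Dbp, Tef and Nfil3, of 21629 protein-coding genes of the GENCODE mouse annotation, release M21, on build GRCm38. The members were taken by name, and a member's loci are the assembled transcript loci that overlap its exons: 34 and 24 in wild type replicates 1 and 2, and 36 and 18 in Hjv-/- replicates 1 and 2. Liver RNA was sequenced from male mice on a C57BL/6 background, with 2 wild type libraries and 2 libraries of mice with a homozygous disruption of the hemojuvelin gene (knockout, written Hjv-/- below). Animals of both genotypes were moved at 5 weeks of age to the AIN-93G diet with 2.5 mg of iron per kg, were kept on it for 50 days, and gave the tissue at 12 weeks. The labels do not give the hour of harvest. They also do not say that the libraries came from different animals, and p-values then measure only the spread between these libraries, which may be technical.

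The clock of a hepatocyte is a feedback loop of transcription. BMAL1 (the product of Arntl) pairs with CLOCK or NPAS2 on E-boxes and drives the Per and Cry genes, Ciart and the nuclear receptor genes Nr1d1 and Nr1d2, whose products then repress BMAL1 activity or Arntl transcription. The same E-boxes drive Dbp and Tef, which with Hlf are the PAR bZIP activators that bind D-boxes, while NFIL3 represses from the same D-boxes. In mouse liver Arntl and Npas2 are known to peak around dawn and Nfil3 and Cry1 in the late night, while Nr1d2, Dbp, Tef, Ciart and Per3 peak during the day and Per1 and Per2 near dusk. A liver taken in the later day is therefore known to hold much Dbp and little Arntl, and a liver taken at dawn the reverse.

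The upstream sequences of 4 members are shown because they hold the letters of the E-box or D-box words that clock and PAR bZIP factors are known to bind. They are the 250 bases before the gene start in RefSeq on GRCm38.p6, read 5′ to 3′ on the gene's own strand, in lower case with each E-box (CACGTG, the same on both strands) or D-box (TTATGTAA, or TTACATAA on the other strand) in capitals.
Ciart, chr3:95882229-95882478, minus strand: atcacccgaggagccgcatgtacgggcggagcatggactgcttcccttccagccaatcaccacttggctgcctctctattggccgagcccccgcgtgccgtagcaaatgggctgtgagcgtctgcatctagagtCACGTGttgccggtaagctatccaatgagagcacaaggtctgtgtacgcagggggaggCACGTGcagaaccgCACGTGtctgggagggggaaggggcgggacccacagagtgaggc
Cry1, chr10:85185055-85185304, minus strand: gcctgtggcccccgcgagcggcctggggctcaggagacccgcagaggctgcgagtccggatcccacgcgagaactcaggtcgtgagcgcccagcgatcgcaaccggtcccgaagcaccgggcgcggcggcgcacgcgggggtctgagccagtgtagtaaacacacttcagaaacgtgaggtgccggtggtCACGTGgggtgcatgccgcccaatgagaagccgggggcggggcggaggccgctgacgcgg
Per1, chr11:69098699-69098948, plus strand: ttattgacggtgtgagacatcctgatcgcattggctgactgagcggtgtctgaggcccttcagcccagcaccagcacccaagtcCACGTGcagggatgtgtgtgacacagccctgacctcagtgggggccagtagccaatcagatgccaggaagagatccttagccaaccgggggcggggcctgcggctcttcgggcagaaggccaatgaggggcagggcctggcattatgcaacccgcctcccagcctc
Per3, chr4:151044666-151044915, minus strand: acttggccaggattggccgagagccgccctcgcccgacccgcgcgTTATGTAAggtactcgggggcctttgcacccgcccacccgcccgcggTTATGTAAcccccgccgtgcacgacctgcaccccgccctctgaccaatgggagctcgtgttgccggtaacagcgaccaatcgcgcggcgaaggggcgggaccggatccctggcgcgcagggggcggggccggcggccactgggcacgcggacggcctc

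RefSeq windows were found for 9 of the 10 members, all but Per2. The E-box was present in 4 of the 9 (Ciart, Cry1, Per1 and Tef), against 6.04% of 32536 windows of the same length over all genes. A member counts here if any of its windows matches, and Arntl, Per1 and Tef have 2 windows each, while the share over all genes is per window. Ciart holds 3 E-boxes, which begin at -116, -58 and -44, counting -1 as the last base before the start. Cry1 has an E-box at -60 and, at -79, the weaker variant AACGTG, which 3.87% of all windows hold on either strand. The Per1 window shown is the first of its 2 windows and has an E-box at -166, and both windows of Tef hold an E-box. Per3 was the member with a D-box, at -205 and again at -158, and 0.811% of all windows hold a D-box. The sequence AGGTCA, the core of the elements bound by ROR and REV-ERB receptors, was matched on either strand in the windows of Nfil3, Nr1d2 and Per1 and in 14.0% of all windows. AGGTCA and the E-box do not overlap in these windows. A match is a description of letters and not of binding, and elements outside the windows were not searched.

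The libraries held 51.3 to 132 M fragments if a step between the deposited confidence bounds of short loci is 1 fragment, and 26238 to 56237 loci. Hjv (named Hfe2 in the annotation, chr3:96525172-96529210) checked the labels: wild type replicates stood at 9.22 and 29.6 scaled FPKM, Hjv-/- replicate 2 at 0.237 over 14.3% of the transcript, and Hjv-/- replicate 1 without a locus. FPKM is fragments per kilobase of transcript, relative to the mapped fragments of the library, and scaled FPKM were divided by 1 factor per library. Marker levels were summed over the markers with a locus in all 4 libraries, since a gene without a locus is not a gene at 0. For hepatocytes 5 of 8 markers had one, with sums of 8633 and 8845 in wild type, against 10576 and 11028 in Hjv-/-, while Alb and Serpina1c had no locus in any library and Cyp2e1 had none in Hjv-/- replicate 2. The markers did not move together. Of the 4 hepatocyte markers tested, 1 lay above in both Hjv-/- libraries, 1 below (Tat) and 2 overlapped. The sum of 5 of 6 Kupffer cell markers was 105 and 127 in wild type, against 78.5 and 109 in Hjv-/-, and that of 5 endothelial markers 43.3 and 54.9 against 50.2 and 55.5. The sums were 87.7 and 72.6 against 101 and 85.7 for 4 stellate cell markers, and 33.4 and 23.1 against 26.1 and 13.6 for 2 of 4 cholangiocyte markers. Both Hjv-/- libraries lay above both wild type ones for 3 of the 4 stellate markers, as for 22.3% of all genes tested, and below them for 3 of 5 tested Kupffer markers, as for 23.8% of all genes. No lymphocyte marker of 4 and no red cell marker of 3 had a locus in all libraries, so no sum is given for them. Of the red cell markers, Hbb-bs was 79.2 in wild type replicate 1 and 83.5 in Hjv-/- replicate 1. Alas2 had a locus in Hjv-/- replicate 1 alone, at 38.1, and the other libraries gave no red cell locus. The part of other cell types in the clock gene levels was not tested. In bulk tissue, fewer cells of a type and less RNA per cell cannot be told apart.

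All 10 members had an assembled locus in every library. Of these, 8 had loci spanning at least 50% of a coding transcript in every library and at least 1 scaled FPKM in at least 2 libraries, and were tested by limma among 7945 genes. Arntl and Dbp were not tested, because their loci spanned 45.0% of a transcript in wild type replicate 2 for Arntl and 23.4% in Hjv-/- replicate 1 for Dbp. By limma with Benjamini-Hochberg adjustment 0 of the 8 tested members passed an adjusted p under 0.05, and 0% of all genes did. At an unadjusted p under 0.05 the count was also 0 of 8, against 11.1% of all genes tested. The 2 Hjv-/- values exceeded both wild type values for 1 tested member, Per3, and below them for 0, against 22.3% and 23.8% of all genes, or 46.1% in either direction. The median log2 difference of the 8, Hjv-/- minus wild type on log2(scaled FPKM + 1), was 0.02, and that of all genes tested was also 0.02.

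**Figure D1:**
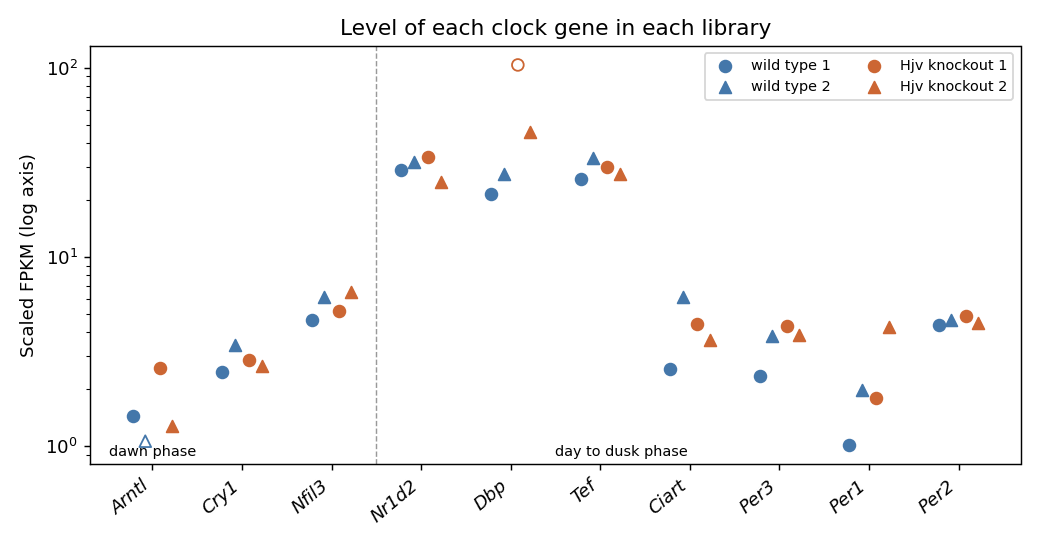
Scaled FPKM of the 10 members (log axis), 1 point per library, wild type in blue and Hjv-/- in orange, with dawn phase members left of the dashed line; open points are libraries whose loci spanned less than 50% of a coding transcript. Genotypes interleave for most members, while the Hjv-/- points of Dbp lie at 103 and 45.6, above 21.4 and 27.3 in wild type.

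Arntl encodes BMAL1, the activator of the loop (chr7:113207465-113314126, 21 exons in its longest coding transcript). It measured 1.45 and 1.06 scaled FPKM in wild type replicates 1 and 2, and 2.58 and 1.28 in Hjv-/- replicates 1 and 2. Its level was low in every library, and the ranges of the genotypes overlapped. The untested log2 difference was 0.34, with an SD of 0.46 between the Hjv-/- libraries, and it was 0.02 without Hjv-/- replicate 1. Tested with no minimum share of the transcript, a setting added after the data were seen, it had an adjusted p of 0.756 by limma. The deposited bounds of its longest locus, 0.902 and 1.48 FPKM in wild type replicate 1 and 0.983 and 1.32 in Hjv-/- replicate 2, overlapped. Those of its last locus in Hjv-/- replicate 1 were 1.94 and 3.00. They overlapped by little with the last-locus bounds of wild type replicate 1 (0.854 and 1.96) and Hjv-/- replicate 2 (0.890 and 1.99). In wild type replicate 2 these bounds were lower, at 0.469 and 1.25, and the last loci differed in length. The deposited FPKM of the last locus was 2.71 in wild type replicate 1, above its own bounds, and 2.47 in Hjv-/- replicate 1.

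The other dawn phase members lay close together in the genotypes. Cry1, a repressor of BMAL1 and CLOCK (chr10:85131700-85185064), measured 2.47 and 3.44 in wild type, against 2.86 and 2.65 in Hjv-/-. Both Hjv-/- values fell between the wild type values. Its log2 difference was -0.06, with a 95% interval of -0.63 to 0.51. Nfil3, the D-box repressor (chr13:52967209-52981073, 2 exons), measured 4.64 and 6.16 in wild type, against 5.21 and 6.53 in Hjv-/-. The ranges overlapped, and the log2 difference was 0.11, with an interval of -0.49 to 0.70.

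The period genes encode the repressors that accumulate towards dusk. Per1 (chr11:69095217-69109960, 23 exons) measured 1.01 and 1.99 in wild type, 1.80 in Hjv-/- replicate 1 and 4.27 in Hjv-/- replicate 2. Knockout replicate 2 stood above the other 3 libraries, and Hjv-/- replicate 1 lay between the wild type libraries. Per1 had the largest log2 difference of the tested members, 0.65 (SE 0.39, adjusted p = 0.562 by limma), and its 95% interval ran from -0.37 to 1.67. Without Hjv-/- replicate 1 the log2 difference was 1.10 (adjusted p = 0.1 by limma), and without Hjv-/- replicate 2 it was 0.19 (adjusted p = 0.757). Its transcript has a GC content of 59.4%, against a median of 49.4% over the genes tested. The log2 ratio of Hjv-/- replicate 2 to Hjv-/- replicate 1 followed GC content across 7945 genes with a Spearman rho of 0.478. The log2 difference of Hjv-/- minus wild type also followed it over these genes (rho 0.384). So did the log2 ratio of wild type replicate 2 to wild type replicate 1 (rho 0.263). With the GC trend of each library removed, a setting added after the data were seen, the log2 difference of Per1 was 0.10.

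Per2 (chr1:91415982-91459324) measured 4.38 and 4.65 in wild type, against 4.86 and 4.48 in Hjv-/-. The 4 libraries were nearly level, and the log2 difference was 0.04, with an interval of -0.44 to 0.52. Per3 (chr4:151003652-151044665), the member with the D-boxes shown above, measured 2.35 and 3.83 in wild type, against 4.30 and 3.88 in Hjv-/-. Both Hjv-/- libraries lay above both wild type libraries, by little in the case of wild type replicate 2. Its log2 difference was 0.34 (SE 0.25, adjusted p = 0.621 by limma), and the interval ran from -0.32 to 0.99.

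Ciart and Nr1d2 encode repressors that are E-box targets themselves. Ciart (chr3:95878503-95882251), whose window holds the 3 E-boxes, measured 2.56 and 6.17 in wild type, against 4.45 and 3.64 in Hjv-/-. The wild type libraries lay on either side of both Hjv-/- libraries. The log2 difference was -0.01, with an interval of -0.99 to 0.97, and leaving out wild type replicate 2 gave 0.50 and leaving out replicate 1 gave -0.51. Nr1d2, the heme-binding receptor REV-ERB beta (chr14:18204054-18239127), measured 28.6 and 31.8 in wild type, against 33.7 and 24.9 in Hjv-/-. Here the Hjv-/- libraries lay on either side of the wild type libraries, and the log2 difference was -0.06, with an interval of -0.64 to 0.52.

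Tef, a PAR bZIP activator (chr15:81802421-81826863), measured 25.7 and 33.4 in wild type, against 29.9 and 27.3 in Hjv-/-. Both Hjv-/- values fell between the wild type values, and the log2 difference was -0.03, with an interval of -0.58 to 0.51. For Nr1d2, Tef, Cry1 and Ciart the sign turned positive on the deposited scale, at 0.15, 0.17, 0.09 and 0.16, each under the shift of 0.19 of the median of all genes on that scale, so no direction is given for them.

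**Figure D2:**
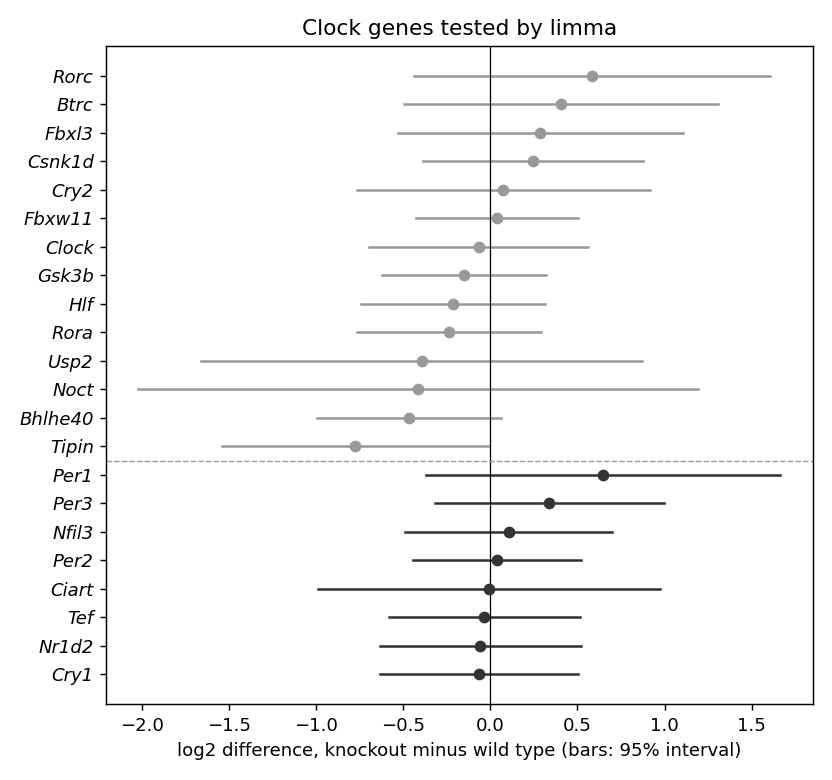
log2 difference, Hjv-/- minus wild type, of the 8 tested members (black, lower block) and the 14 tested other clock genes (grey, upper block), with limma's 95% intervals. All intervals of the members span 0, and Tipin is the gene whose interval ends just below 0, at -0.02.

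Dbp, the PAR bZIP activator with the largest daily swing of the family, was the member whose genotypes lay furthest apart. It measured 21.4 and 27.3 scaled FPKM in wild type replicates 1 and 2, 103 in Hjv-/- replicate 1 and 45.6 in Hjv-/- replicate 2. Both Hjv-/- libraries lay above both wild type libraries, as in 22.3% of the genes tested, and they differed from each other by more than the wild type libraries did. The wild type mean was 24.3 ± 4.17 and the Hjv-/- mean 74.4 ± 40.9 (SD, n = 2 each), so their ratio was 3.06. The log2 difference was 1.47, with an SD of 0.82 between the Hjv-/- libraries and 0.24 between the wild type libraries. With no minimum share of the transcript limma gave an SE of 0.40, an unadjusted p of 0.0155 and an adjusted p of 0.512.

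The Dbp loci did not cover the same parts of the gene in each library. Dbp (chr7:45705088-45710203, plus strand) has 4 exons of 675, 411, 212 and 539 bases in its longest coding transcript. The locus of Hjv-/- replicate 1 began 1882 bases after the gene start, near the end of the second exon, and had a deposited 124 FPKM with bounds of 114 and 133. The locus of Hjv-/- replicate 2 began 102 bases before the gene start and reached into the fourth exon, at 43.5 FPKM with bounds of 42.3 and 45.3. The main wild type loci had 25.3 FPKM with bounds of 18.8 and 21.9 in replicate 1, and 27.7 with bounds of 20.4 and 24.2 in replicate 2, so both wild type values lay above their own bounds. Neither pair of Hjv-/- bounds reached down to the wild type bounds. The fourth exon lies within the span of Sphk2 on the other strand, and in 3 libraries a locus assigned to Sphk2 covered it. The kit is not stated to mark strand, so reads of Dbp and Sphk2 there cannot be told apart.

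Without Hjv-/- replicate 1 the log2 difference of Dbp was 0.89, and without Hjv-/- replicate 2 it was 2.05. It was 1.24 with the highest locus per gene and 0.50 with the loci of a gene summed. Dbp has the highest GC content of the members, 61.6%, and with no minimum share and the GC trend removed its log2 difference was 0.88 (unadjusted p = 0.204, adjusted p = 0.711 by limma). The part of GC content and of the missing exons in the Dbp difference was not tested further.

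**Figure D3:**
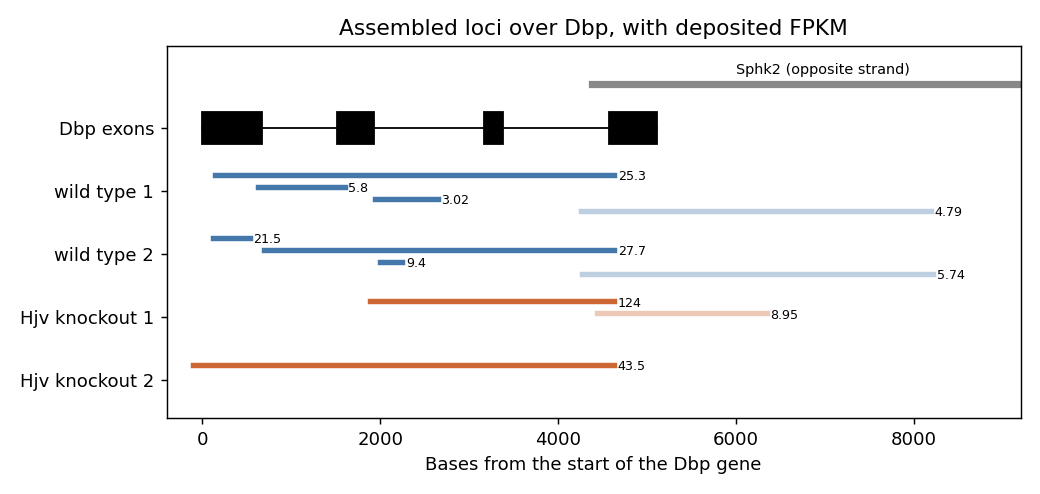
Loci over Dbp in each library as lines, placed by bases from the gene start, with their deposited FPKM; black boxes are exons, dark lines are loci assigned to Dbp, pale lines loci assigned to Sphk2. The Hjv-/- replicate 1 locus at 124 FPKM leaves out the first exon and most of the second, while the Hjv-/- replicate 2 locus at 43.5 FPKM runs from before the first exon.

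The phase relations between members were then compared within each library, where the library's scale cancels in a ratio. A trend with GC content does not cancel between members of unlike GC content, such as Dbp (61.6%), Arntl (47.7%) and Nr1d2 (41.8%). The part of GC content in the ratios was not tested. The ratio of Dbp to Arntl, a day gene over a dawn gene, was 14.8 and 25.7 in wild type and 40.1 and 35.7 in Hjv-/-. Both Hjv-/- ratios lay above both wild type ratios. The ratio of Nr1d2 to Arntl, also day over dawn, went the other way, at 19.8 and 29.95 in wild type and 13.1 and 19.5 in Hjv-/-, with both Hjv-/- ratios below. Each ratio with Arntl rests on a member whose loci spanned 45.0% of a transcript in wild type replicate 2. The ratio of Nr1d2 to Cry1 was 11.6 and 9.26 in wild type and 11.8 and 9.38 in Hjv-/-, and that of Per2 to Cry1 was 1.77 and 1.35 against 1.70 and 1.69. These ratios overlapped between the genotypes. Among the period genes, Per1 to Per2 was 0.23 and 0.43 in wild type, 0.37 and 0.95 in Hjv-/-, and Per3 to Per2 was 0.54 and 0.82, against 0.88 and 0.87. The ratio of Tef to Nfil3, the activator over the repressor of D-boxes, was 5.53 and 5.42 in wild type and 5.74 and 4.18 in Hjv-/-. That of Dbp to Nfil3 was 4.61 and 4.43 in wild type and 19.8 and 6.98 in Hjv-/-. Over Nfil3, the ratio of Dbp separated the genotypes and the ratio of Tef did not. The levels of 46.1% of all genes tested also separated the genotypes, and no such share was formed for ratios. Both ratios of Dbp in Hjv-/- replicate 1 rest on a locus that spanned 23.4% of the transcript.

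A phase contrast was formed as the mean log2 level of the 6 tested day to dusk members minus that of the 2 tested dawn members, Cry1 and Nfil3. It was 0.63 and 0.73 in wild type and 0.87 and 0.75 in Hjv-/-. Both Hjv-/- values lay above both wild type values, by little between Hjv-/- replicate 2 and wild type replicate 2. The levels of 22.3% of all genes tested lay above in this way. Per1, at 0.65, had the largest log2 difference of the 6 day to dusk members. For the contrast the difference of the means was 0.13, with an SD of 0.080 between the Hjv-/- libraries. The difference was 0.077 without Hjv-/- replicate 1, 0.084 without wild type replicate 1 and 0.48 with loci summed. With all 10 members whatever the share of the transcript, the contrast was 1.16 and 1.44 in wild type and 1.53 and 1.498 in Hjv-/-. In wild type the highest mean levels were those of Nr1d2 (30.2), Tef (29.5) and Dbp (24.3), while in Hjv-/- Dbp stood first at 74.4. Dbp was first in each Hjv-/- library, while the size of that mean was carried by replicate 1. In every library Dbp, Nr1d2 and Tef exceeded each of the other 7. Among those 7, ordered by the mean over the 4 libraries from Nfil3 and Per2 through Ciart, Per3 and Cry1 to Per1 and Arntl, the ranges of neighbours overlapped. With no hour of harvest in the labels, a difference in hour between the animals and a difference by genotype cannot be told apart.

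Libraries of 1 genotype also differed. In 9 of 10 members wild type replicate 2 was above wild type replicate 1, against 51.6% of all genes tested, with a median log2 difference of 0.35 against 0.01. In 8 of 10 members Hjv-/- replicate 1 was above Hjv-/- replicate 2, against 49.6% of all genes. The median log2 difference, replicate 2 minus replicate 1, was -0.12 against 0.003. Of the 14 tested other clock genes, 9 were higher in wild type replicate 2 and 9 were higher in Hjv-/- replicate 1. The 10 members include Arntl and Dbp, whose loci did not reach the share of the transcript set for the genes tested. Arntl was the member that was lower in wild type replicate 2, and Per1 and Nfil3 were the members higher in Hjv-/- replicate 2.

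Of 20 other genes of the clock, 14 were tested, and 4 lay below in both Hjv-/- libraries, 0 above and 10 overlapped, where 23.8% of all genes lay below and 22.3% above. Their median log2 difference was -0.11 (0.065 on the deposited scale). At an unadjusted p under 0.05, 1 was lower, against 5.31% of all genes, and 0 were higher. This was Tipin, a partner of Timeless in DNA replication, at 5.50 and 3.92 in wild type and 3.04 and 1.69 in Hjv-/- (log2 difference -0.78, adjusted p = 0.448 by limma). Bhlhe40, an E-box repressor, measured 40.7 and 48.2 in wild type, against 29.0 and 34.7 in Hjv-/-, a log2 difference of -0.47 (adjusted p = 0.485). Hlf, the PAR bZIP relative of Dbp and Tef, measured 11.7 and 14.5 in wild type, against 10.4 and 11.8 in Hjv-/-, and these ranges overlapped by little. Noct, a rhythmic phosphatase of NADPH, measured 16.2 and 10.3 in wild type, 18.2 in Hjv-/- replicate 1 and 4.68 in Hjv-/- replicate 2. Csnk1d, a kinase of the period proteins, measured 11.9 and 11.6 in wild type, 11.6 in Hjv-/- replicate 1 and 17.2 in Hjv-/- replicate 2. Npas2, the dawn phase partner of BMAL1 and named here after its values were seen, stood at 1.13 over 7.41% of its transcript in wild type replicate 1 and 0.341 over 24.9% in Hjv-/- replicate 2, and the others gave no locus.

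Outputs of the clock and of the PAR bZIP factors in liver were given by a list of 20 genes, of which 19 were tested. For 6 both Hjv-/- libraries lay below both wild type libraries, for 1 above, and 12 overlapped, beside 23.8% below and 22.3% above over all genes. The list's median difference on the log2 scale was -0.19 (0.01 on the deposited scale). At an unadjusted p under 0.05, 3 were lower (5.31% of all genes were lower by this rule) and 1 higher (5.81% of all genes), and 0 passed the adjusted threshold. Ces2e, a carboxylesterase, measured 94.7 and 102 in wild type, against 47.4 and 43.1 in Hjv-/- (log2 difference -1.11, adjusted p = 0.317 by limma). Elovl3, an elongase of very long chain fatty acids, measured 162 and 85.5 in wild type, against 45.9 and 52.7 in Hjv-/- (log2 difference -1.24, adjusted p = 0.421 by limma). Cyp2a5, a coumarin hydroxylase and known D-box target, measured 344 and 428 in wild type, against 261 and 153 in Hjv-/- (log2 difference -0.94, adjusted p = 0.440 by limma). Cyp2a5 and Cyp2a4 are near-identical, and of the 4 libraries Hjv-/- replicate 1 alone gave a value for Cyp2a4 (149, looked up after seeing Cyp2a5), so the split of fragments between them is uncertain.

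Cyp7a1, the rate-limiting enzyme of bile acid synthesis and a known target of DBP, was the output that lay higher. It measured 6.03 and 12.4 in wild type, against 16.3 and 26.4 in Hjv-/-, a log2 difference of 1.17 (adjusted p = 0.440 by limma). Its Hjv-/- libraries were in the opposite order to those of Dbp, with Hjv-/- replicate 2 the higher. The most abundant other outputs overlapped between the genotypes. Upp2, a uridine phosphorylase, measured 124 and 208 in wild type, against 153 and 95.5 in Hjv-/-, and Gys2, the liver glycogen synthase, 78.7 and 112 against 79.6 and 84.5. Alas1 measured 163 and 29.97 in wild type, against 91.2 and 148 in Hjv-/-, and Ces2a 148 and 72.4 against 67.1 and 197.

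Temperature and glucocorticoid cues, which carry time of day to the liver, were read from 13 genes, of which 10 were tested. Both Hjv-/- libraries lay below for 4, above for 2, and 4 overlapped, beside 23.8% below and 22.3% above over all genes. The median log2 difference was -0.26 (-0.09 on the deposited scale). At an unadjusted p under 0.05, 3 were lower (5.31% of all genes), 0 were higher (5.81% of all genes), and 0 passed the adjusted threshold. Tat, the tyrosine aminotransferase that glucocorticoids induce, measured 456 and 407 in wild type, against 246 and 239 in Hjv-/- (log2 difference -0.83, adjusted p = 0.403 by limma). Tsc22d3, the glucocorticoid-induced leucine zipper gene, measured 44.9 and 47.7 in wild type, against 28.7 and 34.2 in Hjv-/- (log2 difference -0.55, adjusted p = 0.440 by limma). Hsp90aa1, a heat shock chaperone, measured 86.0 and 91.9 in wild type, against 64.2 and 65.0 in Hjv-/- (log2 difference -0.45, adjusted p = 0.448 by limma). Hsph1, another chaperone, measured 25.6 and 30.6 against 21.5 and 32.4. Rbm3, induced by cold, measured 10.8 and 13.9 in wild type, 15.0 in Hjv-/- replicate 1 and 3.27 in Hjv-/- replicate 2. Nr3c1, the glucocorticoid receptor, measured 14.2 and 13.9 against 17.4 and 15.6, and the kinase Sgk1 8.61 and 7.74 against 6.65 and 5.45.

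Fasting and feeding genes, which follow meal time, numbered 13, with 8 tested. Both Hjv-/- libraries lay below for 1 and 7 overlapped, beside 23.8% below over all genes and 46.1% apart in either direction. The median difference of the 8 tested on the log2 scale was 0.12 (0.32 on the deposited scale). The 1 was Pck1, the gluconeogenic enzyme, at 822 and 986 in wild type and 533 and 617 in Hjv-/- (log2 difference -0.65, unadjusted p = 0.0369, adjusted p = 0.440 by limma). Cpt1a, of fatty acid entry into mitochondria, measured 121 and 110 in wild type, against 85.4 and 124 in Hjv-/-. Srebf1, a lipogenic transcription factor, measured 16.8 and 11.6 in wild type, against 8.67 and 36.5 in Hjv-/-. For both genes the ranges of the genotypes overlapped.

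**Figure D4:**
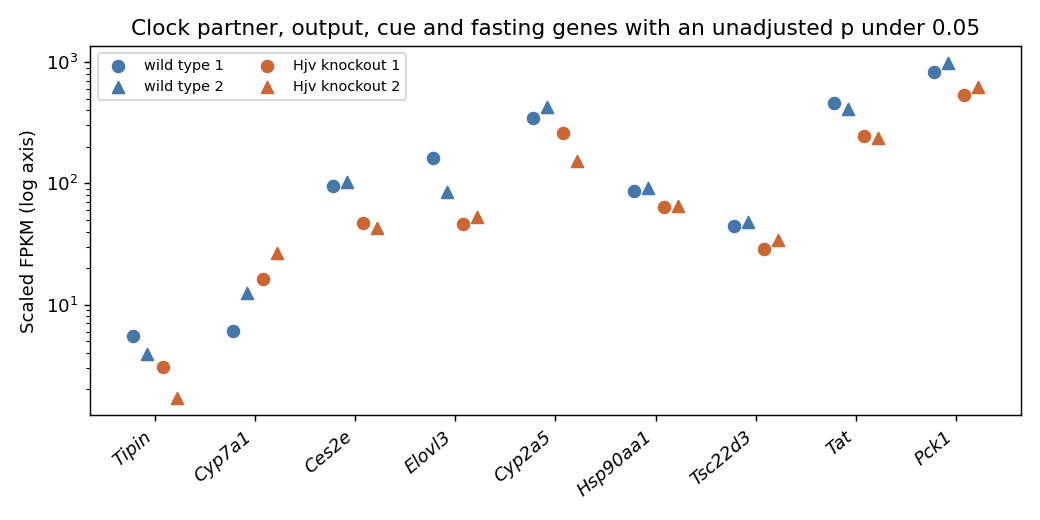
Scaled FPKM (log axis) of the 9 genes of the partner, output, cue and fasting lists with an unadjusted p under 0.05, 1 point per library, wild type in blue and Hjv-/- in orange. Cyp7a1 lies higher in both Hjv-/- libraries and the other 8 lie lower, and 0 of the 9 passed the adjusted threshold.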

How the data were processed

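Each library had 1 deposited table of FPKM with confidence bounds, also FPKM, made by the authors with TopHat and Cufflinks after FastQC, per the submitters' processing notes, which give no versions and name mm9. Loci carry positions and no gene names. Positions of the members match GRCm38, so that build was used. Members and lists were chosen with earlier results of these data known.

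Every locus was placed in the protein-coding gene holding most of its exonic sequence. Loci were dropped when under 50% inside that gene, or when a second gene held over 25% of that amount. They were also dropped when they touched only 1 exon and were under 50% exonic, or when FPKM exceeded 3 times the bounds' midpoint. Gene levels are averages over loci, weighted by exonic length, and needed 50% of a coding transcript spanned. Median-of-ratios factors were 0.935, 0.915, 1.20 and 0.954. Genes with 1 scaled FPKM in 2 libraries were kept, and log2(scaled FPKM + 1) was fitted with limma 3.58.1 (R 4.3.3, trended eBayes, 2 residual and 2.87 prior df), with two-sided p-values adjusted by Benjamini-Hochberg over 7945 genes. This scale understates changes of low genes. An exact permutation test of 2 against 2 libraries cannot go below 0.333. The fit was tested on simulated data.

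Genes named outside the members had an unadjusted p under 0.05 or were among the 4 most abundant others of their list, of which some are not reported here. Alternatives covered pseudocounts, filters, scalings, the trend, a replicate block, joining of loci and each library left out. The GC correction and the fit with no minimum span were chosen after seeing the data.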

Additional observations from a re-analysis of the deposited data

Results flagged for a closer look

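Nr1d1, which encodes the heme-binding repressor REV-ERB alpha, entered no comparison, because its loci (chr11:98767345-98775311 in wild type replicate 1) also cover the end of Thra on the other strand. That locus had a deposited FPKM of 15.8 and 18.0 in the wild type libraries, against 16.8 in knockout replicate 1. It was 53.9 in knockout replicate 2, above the level of both wild type libraries in values the report does not use, with bounds of 50.6 and 52.6. The transcript has a GC content of 56.8%, and the part of GC content, of Thra and of this library in the value was not tested.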

How the results depend on the processing

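By limma 0 of the 8 tested members passed the adjusted threshold under any alternative, and their adjusted p ranged from 0.1 to 0.999. Arntl and Dbp kept a positive difference wherever they were computed. Directions turned as follows. Ciart was 0.014 with a pseudocount of 0.1 and 0.0024 with 0.5. On the deposited scale Cry1 was 0.094, Ciart 0.16, Nr1d2 0.15, Tef 0.17, Gys2 0.013, Hsph1 0.12 and Cpt1a 0.041. Under quantile normalization Per2 was -0.039, Nr1d2 0.022 and Tef 0.040. With the highest locus per gene Per2 was -0.16, Ciart 0.16, Tef 0.062 and Hsph1 0.10, and the phase contrast rose to 0.25. With loci summed Per2 was -0.55, Ciart 0.50, Tef 0.35, Hsph1 0.54, Nr3c1 -0.18, Srebf1 -0.26 and Dbp 0.50, the phase contrast was 0.48, and 405 genes had an unadjusted p under 0.05 against 884. With the GC trend removed Per2 was -0.13, Nr1d2 0.039, Nfil3 -0.074, Hsph1 0.0029 and Srebf1 -0.12. With no minimum span as well, Per2 was -0.12, Nr1d2 0.018, Nfil3 -0.066 and Srebf1 -0.056. With no minimum span alone the phase contrast was 0.21, and 1 member, Dbp, had an unadjusted p under 0.05. The cause of these changes was not tested.

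Leaving out each library gave log2 differences of -0.066 to 0.28 for Nfil3, -0.24 to 0.11 for Cry1, -0.51 to 0.50 for Ciart, -0.27 to 0.16 for Nr1d2, -0.22 to 0.15 for Tef and -0.0093 to 0.087 for Per2. The ranges were -0.62 to 0.92 for Ces2a, -0.49 to 1.92 for Alas1, -0.44 to 0.057 for Gys2, -0.37 to 0.20 for Hsph1, -1.63 to 0.27 for Rbm3, -0.43 to 0.10 for Cpt1a, -0.021 to 0.51 for Csnk1d, -1.29 to 0.46 for Noct and -0.63 to 1.33 for Srebf1. Ces2e (-1.17, adjusted p = 0.0365), Cyp2a5 (-1.32, adjusted p = 0.0436) and Rbm3 (-1.63) passed limma's adjusted threshold without knockout replicate 1. Over all genes 0 to 364 were higher and 1 to 132 lower at the adjusted threshold, and 258 to 2105 had an unadjusted p under 0.05, the most without knockout replicate 1. A lone library is then assumed to vary like the other group. On the deposited scale 1 gene was higher at the adjusted threshold.

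With the replicate number as a block, 0 members passed, the adjusted p of Per1 was 0.467, and 848 genes had an unadjusted p under 0.05. The labels do not say whether same-numbered libraries are paired. The correlation of their deviations was 0.078, and with 2 pairs it cannot show whether they are. Per1, Per2, Per3, Cry1 and Ciart lie near 1 to 6 scaled FPKM, and the 95% interval of Per1 reaches 1.67.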
